A study of Rattus norvegicus with 12 samples.

Results

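The genes described here mark the endothelium of brain vessels and the adhesion of blood cells to it: Icam1, Vcam1, Flt1, Kdr and Slc2a1. They were taken by identifier (ENSRNOG00000020679, ENSRNOG00000014333, ENSRNOG00000000940, ENSRNOG00000046829 and ENSRNOG00000007284, in that order), and all 5 were found among the 32662 Ensembl identifiers of the count tables and passed the filter on low counts. Their symbols come from the list that defined the group, because the tables hold identifiers only. Icam1 was included because its level was higher in superficial CA1 of epileptic rats, so that difference is given for Icam1 as a description without a test. The same holds for every Icam1 contrast that uses the superficial libraries. In what follows the deep sublayer is the side of the pyramidal layer facing the stratum oriens, and the superficial sublayer is the side facing the stratum radiatum.

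The endothelium of brain capillaries forms the blood-brain barrier. Slc2a1 encodes the glucose transporter GLUT1, which carries glucose across that barrier and is also present in astrocytes. Flt1 and Kdr encode the receptors VEGFR1 and VEGFR2 of vascular endothelial growth factor. Kdr transmits most of the growth signal, whereas Flt1 binds the ligand tightly with weak signalling and is also made as a soluble form that acts as a decoy. Icam1 and Vcam1 encode adhesion molecules of the immunoglobulin superfamily, which bind integrins on leukocytes and are induced on activated endothelium by inflammatory cytokines through NF-kB. Reactive astrocytes and microglia can also make Icam1.

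RNA was sequenced from hippocampus of male Wistar rats, of which the pyramidal layer of CA1 was cut out by laser. The rats were labelled as adult, 45 to 50 days old and 180 to 200 g. Whether this age and weight apply at injection or at RNA collection is not given here. Epileptic rats had been injected every hour with kainate (5 mg/kg), which activates glutamate receptors, until status epilepticus set in, followed by diazepam (4 mg/kg). Their RNA was taken 6 to 8 weeks after the status, when the epilepsy was chronic. Vehicle alone, saline or DMSO, had been injected into control rats, which were otherwise handled alike. The 4 groups were superficial epileptic, superficial control, deep epileptic and deep control CA1, with 3 animals per condition and both sublayers from each animal, 12 libraries in all. Deep and superficial libraries of the same condition and replicate number were read as the same animal. Per the labels, seizures were seen on handling or, for some rats, by electrical recording. Cell bodies of the layer were collected from 20 µm sections. Markers of pyramidal, endothelial, mural, glial and immune cells were not analysed here, because no identifier could be paired with a symbol (0 of 32662). The amount of vessel, the RNA per endothelial cell and RNA from other cells can therefore not be told apart in any comparison below. Libraries held 16135358 to 25893962 gene counts. The libraries of epileptic animals 2 and 3 stood apart in the share of alignments that fell on no annotated feature, 22.3 to 26.7%, against 37.7 and 43.0% in epileptic animal 1 and 35.8 to 44.0% in the control libraries. They also had more alignments that were not unique, 37.9 to 45.6%, against 25.2 and 30.6% in epileptic animal 1 and 25.9 to 34.8% in the control libraries. In all libraries 28.6 to 35.1% of alignments were assigned to a gene.

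The promoters of Icam1 and Vcam1 are shown because both are textbook targets of NF-kB and their levels in epileptic rats are set side by side below. The sequences are from RefSeq, assembly GRCr8, and run from 250 bases before to 50 after the annotated start, 5′ to 3′ on the strand of the gene. The counts were made on another assembly, Rnor_6.0. The Icam1 promoter lies at chr8:27829595-27829894 on the plus strand and that of Vcam1 at chr2:206742734-206743033 on the minus strand. Capitals mark matches on either strand to GGNNNTTCC, a short form of the NF-kB site.
Icam1: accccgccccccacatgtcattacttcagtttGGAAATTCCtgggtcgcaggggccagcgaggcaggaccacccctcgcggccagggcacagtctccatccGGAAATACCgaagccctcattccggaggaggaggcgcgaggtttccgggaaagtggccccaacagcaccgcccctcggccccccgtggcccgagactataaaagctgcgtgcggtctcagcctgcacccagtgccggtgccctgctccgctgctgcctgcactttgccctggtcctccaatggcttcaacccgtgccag
Vcam1: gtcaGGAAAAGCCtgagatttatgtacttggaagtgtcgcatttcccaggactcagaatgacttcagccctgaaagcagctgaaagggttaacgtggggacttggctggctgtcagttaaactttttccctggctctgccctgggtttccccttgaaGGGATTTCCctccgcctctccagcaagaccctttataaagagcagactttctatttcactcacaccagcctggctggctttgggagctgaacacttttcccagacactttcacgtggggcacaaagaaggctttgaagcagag
In the Icam1 window GGAAATTCC, 218 to 210 bases before the start, matched on both strands, and GGAAATACC, 149 to 141 bases before it, on the minus strand. In the Vcam1 window GGGATTTCC, 93 to 85 bases before the start, matched on the plus strand and GGAAAAGCC, 246 to 238 bases before it, on the minus strand. The motif was found in 18.3% of 33469 promoters of this length, and in 0 of the windows of Flt1, Kdr and Slc2a1. The longer NF-kB consensus, present in 7.51% of promoters, overlapped the plus-strand match of Vcam1 and also had a match in Flt1 and in Kdr, but none in Icam1 or Slc2a1. These are matches of letters, not measured sites.

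In epileptic rats Icam1 had the largest fold change of the 5 members in both sublayers. It was chosen on its superficial values, and its deep difference did not pass edgeR's quasi-likelihood test (adjusted p = 0.1206). The other 4 members differed from controls by at most 1.33-fold, and none of those differences passed the test. In superficial CA1 the level of Icam1, in CPM, counts scaled to library size by TMM, was 6.46, 9.13 and 5.05 in epileptic animals 1, 2 and 3, against 0.670, 0.642 and 1.24 in control animals 1, 2 and 3. The lowest epileptic library thus lay above the highest control library. The fitted log2 fold change was 3.03, an 8.19-fold higher level, and 99.5% of the 14321 genes tested had a lower one. These values chose the gene and support nothing further.

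The reason given for choosing Icam1 names superficial CA1 only, but the members were chosen with earlier results of these data known. Deep libraries also come from the same animals. Over all genes kept, deviations of same-numbered deep and superficial epileptic libraries correlated at 0.766, 0.521 and 0.770 for animals 1, 2 and 3. The deep test of Icam1 is thus not free of that choice. In deep CA1 Icam1 had 3.91, 7.17 and 2.86 CPM in epileptic animals 1, 2 and 3, against 1.59, 1.10 and 1.13 CPM in control animals 1, 2 and 3. Again every epileptic library was above every control library, as were 8.88% of all genes. The group means were 4.65 ± 2.25 and 1.27 ± 0.275 CPM (SD, n = 3 each). The log2 fold change was 1.87 (SE 0.37), larger than for 99.3% of genes, but edgeR's quasi-likelihood test gave an adjusted p of 0.1206 (unadjusted p = 7.8e-04). Blocking on the replicate number gave a log2 fold change of 1.80 and an adjusted p of 0.03392, and DESeq2 gave 1.88 with an adjusted p of 0.001371. The adjusted p was also below the threshold of 0.05 without epileptic animal 1 (0.03843), without epileptic animal 3 (0.007414) and with no low-count filter (0.02191). It was 0.396 without epileptic animal 2, and 0.4361, 0.4621 and 0.3659 without control animal 1, 2 or 3. Over all alternatives it ranged from 0.001371 to 0.4621. The fit without a block called 0 of 14261 genes in deep CA1 (0% of those tested), with 1947 (13.7%) at an unadjusted p below 0.05 and 376 called by DESeq2.

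**Figure D1:**
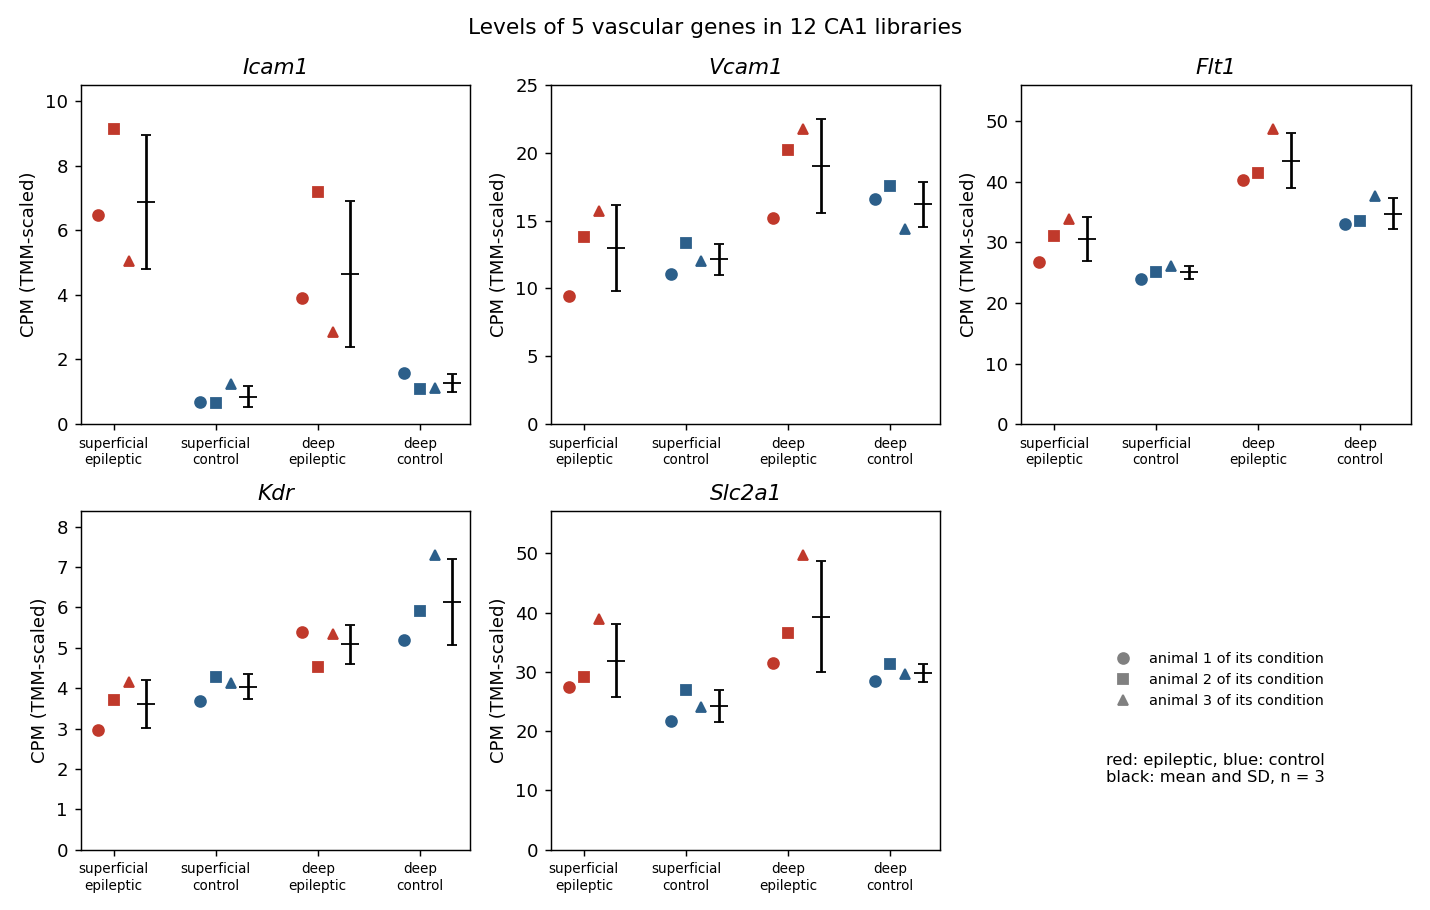
TMM-scaled CPM of each gene in each library, by sublayer and condition (red epileptic, blue control), with symbols for the animals and black marks for the mean and SD of 3 animals. Icam1 lies at 2.86 to 9.13 CPM in all epileptic libraries and at 0.642 to 1.59 CPM in all control libraries, while the groups of Vcam1 and Kdr overlap.

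Icam1 rested on few reads in the controls. It had 14, 12 and 23 counts in superficial control libraries and 30, 21 and 19 in deep control libraries, against 139, 224 and 107 in superficial and 82, 149 and 53 in deep epileptic libraries. The exact Poisson 95% interval, which covers counting error only, was 2.14 to 3.74 CPM for the lowest epileptic library and 1.07 to 2.27 CPM for the highest control library. These 2 intervals overlap slightly, and both libraries are from deep CA1. The coefficient of variation of Icam1 over 3 animals was 30.1% in superficial epileptic and 39.5% in superficial control CA1, and 48.4% in deep epileptic and 21.6% in deep control CA1. The median gene had 13.9%, 8.75%, 14.6% and 9.26% in the same order. Among the epileptic animals, animal 2 had the highest level in both sublayers and animal 3 the lowest.

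Vcam1, the counterpart of Icam1 for integrin alpha-4 beta-1, did not share that pattern. Its level was 9.43, 13.8 and 15.7 CPM in superficial epileptic animals 1, 2 and 3, against 11.05, 13.3 and 12.03 CPM in superficial control animals 1, 2 and 3. The epileptic values lie on both sides of the controls. The log2 fold change was 0.12 (SE 0.19, adjusted p = 0.7645, edgeR's quasi-likelihood test), with an approximate 95% interval of −0.26 to 0.50. In deep CA1 Vcam1 had 15.2, 20.2 and 21.7 CPM in epileptic animals 1, 2 and 3, against 16.6, 17.6 and 14.4 CPM in control animals 1, 2 and 3. Epileptic animal 1 lay within the control range and animals 2 and 3 above it. The log2 fold change was 0.23 (SE 0.15, adjusted p = 0.5374, interval −0.07 to 0.54). With the share of alignments on no feature as a covariate the sign turned, to −0.42 in superficial and −0.10 in deep CA1, with adjusted p of 0.7151 and 0.8581. It also turned in superficial CA1 without epileptic animal 3, to −0.05.

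Of the VEGF receptors, Flt1 was higher in epileptic rats in its means, without passing the test. In superficial CA1 it had 26.7, 31.07 and 33.9 CPM in epileptic animals 1, 2 and 3, against 24.01, 25.1 and 26.2 CPM in control animals 1, 2 and 3. All epileptic values were above the controls, the lowest by a small margin. The log2 fold change was 0.30 (SE 0.11) and did not pass (adjusted p = 0.2258, edgeR). In deep CA1 Flt1 had 40.3, 41.4 and 48.7 CPM in epileptic animals 1, 2 and 3, against 33.04, 33.5 and 37.7 CPM in control animals 1, 2 and 3, and the groups again did not overlap. There the log2 fold change was 0.33 (SE 0.11, adjusted p = 0.2737). With the share of alignments on no feature as a covariate it was 0.09 in superficial and 0.21 in deep CA1. Without epileptic animal 1 the superficial value passed, at 0.40 with an adjusted p of 0.04519 (range over the alternatives 0.04519 to 0.999).

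Kdr went the other way in its means, without passing the test. It had 2.97, 3.71 and 4.16 CPM in superficial epileptic animals 1, 2 and 3, against 3.68, 4.28 and 4.14 CPM in superficial control animals 1, 2 and 3. The ranges overlap, and the log2 fold change was −0.14 (SE 0.21, adjusted p = 0.746, edgeR). In deep CA1 Kdr had 5.39, 4.53 and 5.34 CPM in epileptic animals 1, 2 and 3, against 5.19, 5.91 and 7.30 CPM in control animals 1, 2 and 3. The ranges overlap here too (log2 fold change −0.27, SE 0.19, adjusted p = 0.5605). The superficial value was −0.0052 without epileptic animal 1, −0.26 without epileptic animal 3 and −0.48 with the share of alignments on no feature as a covariate, and the deep value was −0.13 without control animal 3. Kdr rested on 64 to 113 counts in epileptic and 77 to 123 counts in control libraries.

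Slc2a1, the glucose transporter, had 27.5, 29.2 and 38.9 CPM in superficial epileptic animals 1, 2 and 3, against 21.7, 26.96 and 24.1 CPM in superficial control animals 1, 2 and 3. In deep CA1 it had 31.6, 36.6 and 49.7 CPM in epileptic animals 1, 2 and 3, against 28.4, 31.4 and 29.7 CPM in control animals 1, 2 and 3. The groups did not overlap in either sublayer, and epileptic animal 3 was the highest in both. The log2 fold change was 0.41 (SE 0.16, adjusted p = 0.228) in superficial and 0.40 (SE 0.16, adjusted p = 0.327) in deep CA1 by edgeR, and neither passed. Without epileptic animal 3 the values were 0.23 and 0.19, and with the share of alignments on no feature as a covariate they were 0.11 and 0.05. That share was lowest in epileptic animals 2 and 3, and its part in the differences of Flt1 and Slc2a1 was not tested beyond these fits.

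Counted over the members, 0 of the 4 tested in superficial CA1 and 0 of the 5 tested in deep CA1 passed, where 0.014% and 0% of all genes did by edgeR. At an unadjusted p below 0.05 lay 2 of the 4 (Flt1 and Slc2a1) and 3 of the 5 (Icam1, Flt1 and Slc2a1), where 18.9% and 13.7% of all genes did. DESeq2 called 0 of the 4 and 1 of the 5 (Icam1), against 6.18% of all genes in superficial and 2.64% in deep CA1. Epileptic libraries lay wholly above the controls for Flt1 and Slc2a1 in superficial CA1, besides Icam1, and for Icam1, Flt1 and Slc2a1 in deep CA1. Over all genes this was so for 10.3% in superficial and 8.88% in deep CA1. Both sublayers come from the same animals, so the deep values do not repeat the superficial ones independently. The place of Icam1 in the deep counts is therefore not free of its choice on superficial values.

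**Figure D2:**
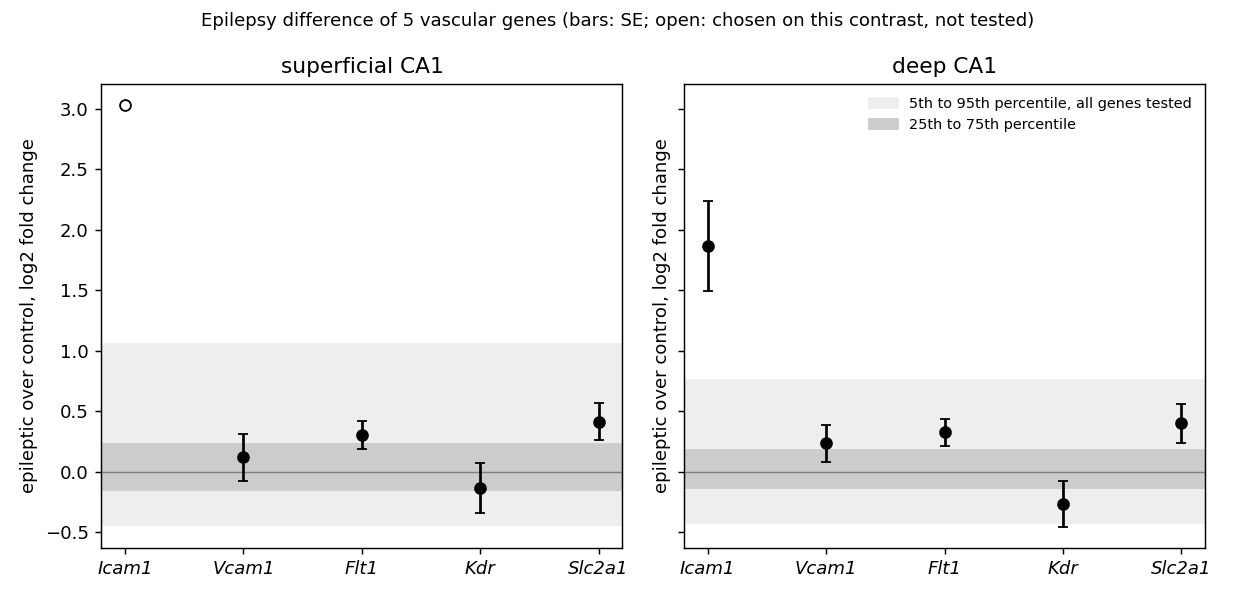
Fitted log2 fold change of epileptic over control rats for each gene in superficial (left) and deep (right) CA1, with SE bars for the tested values, an open symbol for Icam1 in the contrast it was chosen on, and grey bands for the spread of all genes tested. Icam1 lies at 3.03 and 1.87, far outside the bands, and the other 4 genes lie between −0.27 and 0.41.

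The other 4 genes differed between the sublayers. Vcam1, Flt1, Kdr and Slc2a1 were each lower in superficial than in deep CA1 in 6 of 6 animals, a pattern shared by 10.5% of all genes. In epileptic rats Vcam1, Flt1 and Slc2a1 fell in superficial relative to deep CA1, and in control rats all 4 did, by edgeR's quasi-likelihood test with a term for each animal. Over all 14791 genes tested, 5% were called lower in superficial CA1 of epileptic rats and 4.18% in control rats. The term rests on reading equal replicate numbers as the same animal. Without it none of these calls of the members remained by edgeR (lowest adjusted p = 0.1467, for Flt1 in epileptic rats).

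Flt1 differed between the sublayers by a like amount in all animals. Superficial minus deep, its log2 CPM differed by −0.59, −0.41 and −0.52 in epileptic animals 1, 2 and 3, against −0.46, −0.42 and −0.52 in control animals 1, 2 and 3. The fitted log2 fold change was −0.51 (SE 0.06, adjusted p = 1.955e-04) in epileptic and −0.47 (SE 0.07, adjusted p = 5.543e-04) in control rats, about 0.702 and 0.723 times the deep level. For Vcam1 the differences were −0.68, −0.54 and −0.47 in epileptic animals 1, 2 and 3, against −0.59, −0.40 and −0.25 in control animals 1, 2 and 3. Its fitted values were −0.56 (SE 0.09, adjusted p = 9.535e-04) in epileptic and −0.42 (SE 0.09, adjusted p = 0.01004) in control rats. The call in controls was lost without control animal 1 (adjusted p = 0.1532) and without control animal 2 (0.07915).

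For Slc2a1 the difference, superficial minus deep, was −0.20, −0.33 and −0.35 in epileptic animals 1, 2 and 3, against −0.39, −0.22 and −0.30 in control animals 1, 2 and 3. The fitted values were −0.30 (SE 0.07) in both conditions, with adjusted p of 0.01114 in epileptic and 0.01482 in control rats. That of epileptic rats no longer passed without epileptic animal 2 (0.1007), nor that of controls without control animal 1 (0.1632), 2 (0.05523) or 3 (0.1169). Kdr differed by −0.84, −0.28 and −0.35 in epileptic animals 1, 2 and 3, against −0.48, −0.46 and −0.80 in control animals 1, 2 and 3. Its fitted values were −0.49 (SE 0.15, adjusted p = 0.05529) in epileptic rats, just short of the threshold, and −0.60 (SE 0.15, adjusted p = 0.02556) in control rats. The epileptic value passed without epileptic animal 3 (0.03655) and with no low-count filter (0.01726). It did not pass without epileptic animal 1 (0.3165) or 2 (0.1074), nor in DESeq2 (0.2289). The control value did not pass without control animal 1 (0.1026), 2 (0.1033) or 3 (0.2399), nor in DESeq2 (0.1134).

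A mean of the sublayer differences over both conditions, chosen after seeing these values, drew on all 6 animals. All 4 genes passed, with log2 fold changes of −0.49 for Vcam1 (SE 0.06, adjusted p = 7.386e-05), −0.49 for Flt1 (SE 0.05, adjusted p = 4.625e-06), −0.54 for Kdr (SE 0.11, adjusted p = 0.002559) and −0.30 for Slc2a1 (SE 0.05, adjusted p = 5.064e-04), superficial over deep. By that test 9.97% of all genes were called lower in superficial CA1. The 4 values passed without any 1 of the 6 animals. Without the term for the animal that of Flt1 still passed, whereas those of Vcam1, Kdr and Slc2a1 did not (adjusted p = 0.08653, 0.05597 and 0.2612).

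**Figure D3:**
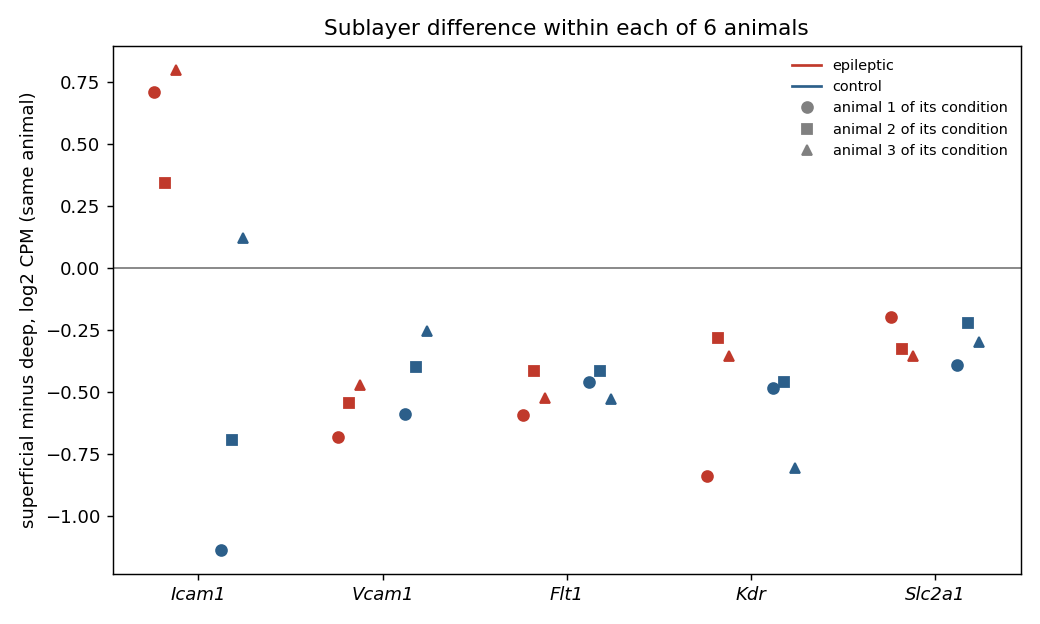
Superficial minus deep log2 CPM within each animal for each gene, epileptic animals in red and control animals in blue, with 0 marking no difference. All 6 animals lie below 0 for Vcam1, Flt1, Kdr and Slc2a1, between −0.84 and −0.20, whereas Icam1 lies above 0 in the 3 epileptic animals and below it in 2 of the 3 control animals.

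Icam1 departed from this common direction in the epileptic rats. Its superficial library exceeded the deep one by 0.71, 0.34 and 0.80 log2 units in epileptic animals 1, 2 and 3, against differences of −1.13, −0.69 and 0.12 in control animals 1, 2 and 3. Control animals 1 and 2 thus had the direction of the other 4 genes, and control animal 3 did not. The fitted log2 fold change, superficial over deep, was 0.60 in epileptic and −0.61 in control rats, and their difference was 1.20, above that of 98.97% of genes. These contrasts share the libraries that Icam1 was chosen on and are given without a test.

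For the other 4 genes the sublayer difference itself was compared between conditions. Epileptic minus control, it was −0.14 (SE 0.13, adjusted p = 0.9015) for Vcam1, −0.04 (SE 0.09, adjusted p = 0.9697) for Flt1, 0.10 (SE 0.22, adjusted p = 0.9692) for Kdr and 0.01 (SE 0.10, adjusted p = 0.9951) for Slc2a1 on the log2 scale, by edgeR. The approximate 95% intervals were −0.39 to 0.11, −0.23 to 0.14, −0.33 to 0.53 and −0.18 to 0.20 in the same order. All 4 intervals include 0. That test called 0 of 14791 genes (0%), with 976 (6.6%) at an unadjusted p below 0.05 and 2 called by DESeq2.

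The balance of the VEGF receptors was then taken as the ratio of Flt1 to Kdr counts within a library, which needs no scaling between libraries. It was 8.98, 8.37 and 8.15 in superficial epileptic animals 1, 2 and 3, against 6.52, 5.86 and 6.32 in superficial control animals 1, 2 and 3. In deep CA1 it was 7.48, 9.16 and 9.12 in epileptic animals 1, 2 and 3, against 6.37, 5.66 and 5.16 in control animals 1, 2 and 3. Within each sublayer every epileptic library had a higher ratio than every control library, and both sublayers come from the same animals. The mean ratio was 8.50 ± 0.433 in superficial epileptic and 6.24 ± 0.337 in superficial control CA1, and 8.59 ± 0.960 in deep epileptic and 5.73 ± 0.605 in deep control CA1 (SD, n = 3 each). An exact permutation test, two-sided, gave p = 0.1 in each sublayer, the smallest that 3 animals against 3 can give. The ratio was looked at after seeing the levels. Of the 6 ratios among the 4 genes, 4 separated the conditions in superficial CA1 and 2 in deep CA1. The same 2 did so in both, Flt1 to Kdr and Kdr to Slc2a1. These ratios reuse the same 4 genes and are not independent, and the share of all gene pairs that separate was not computed, so the counts are a description only. Of the other 14790 genes kept, 9.13% had a ratio to Kdr that was higher in every epileptic than in every control library within each sublayer, so such a separation is not particular to Flt1. A ratio of counts reflects gene length as well as expression, so its size is not a ratio of transcripts.

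**Figure D4:**
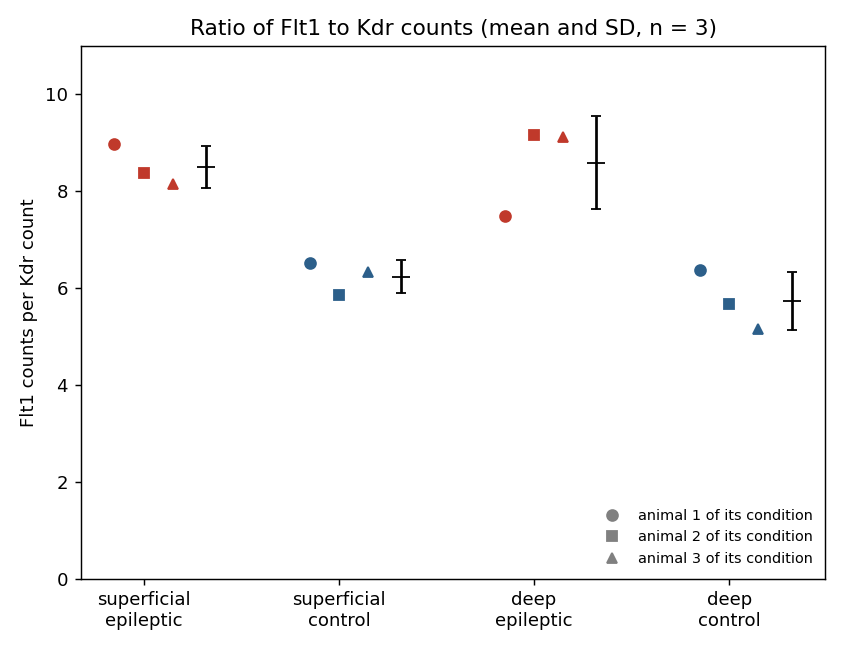
Flt1 counts divided by Kdr counts in each library, with black marks for the mean and SD of 3 animals and symbols for the animals. Epileptic libraries lie at 7.48 to 9.16 and control libraries at 5.16 to 6.52, in both sublayers.

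The identifiers that moved most like the adhesion genes were sought by the root mean square difference between log2 CPM profiles over the 12 libraries. Each profile was centred on its own mean, and 13230 others with a mean log2 CPM of at least 0 were searched. For Icam1 the profile includes the superficial libraries it was chosen on, so a like rise in its nearest identifier is a description only. The profile of ENSRNOG00000018159 was the nearest to that of Icam1, at 0.34 log2 units, where the profile of Icam1 itself had a root mean square of 1.25. That identifier had 10.7 ± 3.42 CPM in superficial epileptic and 1.40 ± 0.187 CPM in superficial control libraries, and 7.90 ± 2.60 CPM in deep epileptic and 1.72 ± 0.436 CPM in deep control libraries (SD, n = 3 each). The nearest to Vcam1 was ENSRNOG00000013770, at 0.13 log2 units, against 0.33 for Vcam1 itself. It had 15.6 ± 4.40 CPM in superficial epileptic and 12.8 ± 1.19 CPM in superficial control libraries, and 21.5 ± 4.24 CPM in deep epileptic and 17.8 ± 1.39 CPM in deep control libraries (SD, n = 3 each). Neither identifier could be paired with a gene name.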

How the data were processed

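The authors deposited raw counts of reads per gene, a separate table for each library. HTSeq 0.6.1, SAMtools 0.1.19, STAR 2.5.0c, FastQC 0.11.3 and the build Rnor_6.0 are named in the submitters' processing notes. Settings, strand use and annotation release are not given in the sources used here. Reads of overlapping or antisense genes may thus be mixed in. The 5 summary tallies in each table were left out of library sizes. Alignments on no feature made up 22.3 to 44.0% of those tallied.

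In edgeR 4.0.16 under R 4.3.3, filterByExpr removed low genes (minimum count 10, minimum total 15) and TMM scaled the libraries. All genes were fitted by robust quasi-likelihood and called at a Benjamini-Hochberg adjusted p below 0.05. Epilepsy was tested in the 6 libraries of each sublayer. Sublayers were tested in 1 fit of the 12 libraries that had a term per animal. The SE was approximated from the log2 fold change and the F statistic (its size over the root of F), and intervals are 1.96 SE to either side. Log2 CPM used a prior count of 2. The fits were also run on simulated counts that gave a gene the same spread in both conditions. In the real data, libraries of a group differed more in epileptic rats (chi-square per gene 24.1 to 124) than in controls (7.29 to 14.3). The simulation does not cover that difference. DESeq2 1.42.0, RLE scaling, no filter, other terms and leaving out each animal were the alternatives.

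Each replicate number was read as an animal, since both sublayers were cut from each brain. That same-numbered deep and superficial libraries come from the same rat is a reading of the titles, which give only the number. Deviations from the group mean of same-numbered deep and superficial libraries correlated at 0.316 to 0.770. Numbers shared by epileptic and control rats mark different rats, whose deviations had correlations of 0.218, 0.104 and 0.244 in deep CA1 for numbers 1, 2 and 3, so the blocked value is given there where it changes a call. The members and lists were chosen with earlier results of these data known. The rule for named genes covered the 5 members and the identifier nearest to Icam1 and to Vcam1. The 12 context lists were not run, since 0 of 32662 identifiers could be paired with a symbol. All 5 members were matched by symbol to RefSeq promoters. No 2 libraries of a group were duplicates (chi-square per gene 7.29 to 124).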

Additional observations from a re-analysis of the deposited data

How the results depend on the processing

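Values with a test were compared over 267 combinations of gene, comparison and alternative. Of these, 230 kept both direction and side of the threshold, 20 lost a call, 8 gained it and 9 turned their sign. Signs turned for Vcam1 in epileptic against control rats with the share on no feature as a covariate (−0.42 superficial, −0.10 deep) or leaving out an animal (−0.047 to 0.31, superficial), and the change of the sublayer difference for Kdr (−0.015 to 0.27 leaving out an animal) and for Slc2a1 (−0.038 to 0.047 leaving out an animal, −0.00084 with no filter, −0.0035 without the animal term). The cause was not tested. Of the 53 Icam1 values given without a test, 3 turned their sign, all of the mean sublayer difference over 6 animals (−0.0055, and 0.027 to 0.17 in those 3, each leaving out an animal).

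The number of genes called over the whole table depended more on the fit. Between epileptic and control rats, superficial CA1 gave 2 calls, and 130 with no filter, 885 by DESeq2, 25 with the replicate number as a block, 5 with the covariate and 0 to 1443 without 1 animal. Deep CA1 gave 0, and 8 with RLE, 103 with no filter, 376 by DESeq2, 239 with the block, 99 with the covariate and 0 to 552 without 1 animal. Superficial against deep CA1 in epileptic rats gave 1484, and 811 by DESeq2, 727 from the 6 libraries of that condition, 5 without the animal as a block and 536 to 2217 without 1 animal. In control rats it gave 1248, and 1910 with no filter, 815 by DESeq2, 2375 from 6 libraries, 5 without the animal as a block and 416 to 2071 without 1 animal. Over all 6 animals it gave 3010, and 1930 by DESeq2, 265 without the animal as a block and 1760 to 4093 without 1 animal. The change of the sublayer difference gave 0, and 178 with no filter, 2 by DESeq2 and 0 to 84 without 1 animal. In superficial CA1 the deviations of epileptic and control libraries of 1 number correlated at 0.212, 0.0025 and 0.170. Whether libraries of 1 number share more than the number was not tested. Between epileptic and control rats, the replicate number as a block changed no call of a tested member other than that of Icam1 in deep CA1. Without the animal as a block, none of the tested members passed between the sublayers within a condition by edgeR. Flt1 came nearest, with an adjusted p of 0.1467 in epileptic and 0.1942 in control rats. Counts of 12 to 30 for Icam1 in control libraries limit its precision.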
